A study of Mus musculus with 14 samples.

Results

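The comparison concerns Bim deficiency in KLRG1lo effector CD8+ T cells: 2 arrays labelled BimKO were set against 5 arrays of wild-type (WT) cells, 7 of the 14 arrays of the study. The arrays were chosen by their titles, so no measured value took part in the choice. All cells were OT-I cells, CD8+ T cells with a single T cell receptor for an ovalbumin peptide, of the strain C57BL/6J. They came from fetal liver chimeras, were moved into congenic host mice, and were sorted by flow cytometry on day 6 after infection with Listeria that carry ovalbumin; low surface KLRG1 defined the sort in both groups. A further 4 arrays, 2 of Id2KO and 2 of Id2KOBimKO KLRG1lo cells made in the same way, gave a second Bim contrast that shares no array with the first, and 3 arrays of WT KLRG1hi cells show where terminal effector cells lie. The second contrast also differs in sex-linked transcripts: Xist was 4.47 and 4.99 and Eif2s3y 7.39 and 8.20 in Id2KO, against Xist at 9.16 and 10.22 and Eif2s3y at 3.02 and 3.05 in Id2KOBimKO. The sex of the cells and the Bim label cannot be told apart there, nor in the part it gives to the mean of both contrasts. On the BimKO and WT KLRG1lo arrays Xist was at least 8.78 and Eif2s3y at most 3.66. The labels say neither how the Bim deletion was made nor whether arrays of a group came from separate mice, so a p-value here weighs a difference only against the spread of these arrays, which may be technical.

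Bim, the product of Bcl2l11, is a BH3-only protein of the Bcl-2 family. Such proteins bind the survival proteins Bcl-2, Mcl-1 and Bcl-xL and set free Bax and Bak, which permeabilise the outer membrane of mitochondria. In T cells Bim is known for the loss of effector cells after an infection is cleared, and KLRG1lo cells are the fraction richest in memory precursors.

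No gene differed between BimKO and WT KLRG1lo cells at an adjusted p under 0.05: 0 of 14438 genes tested passed (0% of all genes, limma with Benjamini-Hochberg adjustment). The smallest adjusted p was 0.374, for Ttbk2, a kinase that starts the assembly of primary cilia. At an unadjusted p under 0.05 there were 998 genes (6.91%), of which 362 were higher (2.51%) and 636 lower (4.41%) on the BimKO arrays. This split turned with a replicate block, to 420 higher and 270 lower. Both BimKO arrays lay above all WT arrays for 809 genes (5.6%) and below all of them for 1009 genes (6.99%). The median difference over all genes was -0.02 on the log2 scale, and the 95% interval of a gene reached a median of 0.41 to either side, which is 1.33-fold. A smaller difference of a typical gene would therefore not have reached an unadjusted p under 0.05. In what follows, counts at an unadjusted p describe these arrays and call no gene, and all differences are BimKO minus WT log2 signal unless stated.

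The arrays of the comparison were not alike, and this touches every count below. Across all genes tested, BimKO array 1 correlated with the WT arrays at 0.965 to 0.981 and BimKO array 2 at 0.932 to 0.976, while pairs of WT arrays lay between 0.945 and 0.983 and the BimKO pair at 0.971. Probe sets with no gene name were taken as a gauge of background, though what they measure was not tested. Their median log2 signal was 5.01 and 5.06 on WT arrays 1 and 2. That median lay between 5.21 and 5.24 on WT arrays 3 to 5, and was 5.23 and 5.39 on the BimKO arrays. Without BimKO array 2 the unadjusted count was 177 genes, without BimKO array 1 it was 1630, and 8 genes then passed on array 2 alone, whose spread is taken from the other groups. Against WT arrays 3 to 5 only, 2364 genes reached an unadjusted p under 0.05 (7.38% higher and 9% lower) and 0 passed. Without WT array 2 the unadjusted count was 2020, without WT array 3 it was 650, and without WT array 4 it was 638. Markers of CD8 T cells were in place on every array: Cd8a lay at 11.52 and 11.35 on the BimKO arrays and between 11.29 and 11.68 in WT KLRG1lo, and the 12 tested identity genes had a median difference of -0.03.

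Bcl2l11 itself did not set the groups apart. Its signal was 7.36 and 7.66 on the BimKO arrays, and 7.57, 7.92, 7.47, 7.44 and 7.59 on WT arrays 1 to 5. BimKO array 1 was the lowest of the 7 and BimKO array 2 was above 4 of the WT arrays, so the groups overlapped. The difference was -0.09 (SE 0.18, adjusted p = 0.882 in limma), and an exact two-sided permutation test over the 21 ways to choose 2 of the 7 arrays gave p = 0.619, where the smallest p possible is 0.0476. A single probe set stands for the gene, and where it lies relative to the deleted part could not be read from the sources at hand. It therefore checks nothing unless it lies in that part, and the Bim status of the cells rests on the label. The promoter window of Bcl2l11 is shown because this gene is a classic target of FoxO factors and belongs to the FoxO list below. It is the RefSeq window of GRCm38.p6, chr2:128125788-128126087, plus strand, from 250 bases before to 50 bases after an annotated start, and the capitals mark the only match to the FoxO motif GTAAACA, searched on both strands.
Bcl2l11 promoter: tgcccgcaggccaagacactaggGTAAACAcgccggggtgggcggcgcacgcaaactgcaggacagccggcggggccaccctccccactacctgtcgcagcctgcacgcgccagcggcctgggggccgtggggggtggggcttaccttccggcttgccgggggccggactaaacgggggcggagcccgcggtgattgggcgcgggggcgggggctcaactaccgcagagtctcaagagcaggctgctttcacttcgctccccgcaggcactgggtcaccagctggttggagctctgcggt

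The match is a description and not a site: 1 of the 2 RefSeq windows of Bcl2l11 holds it, and so do 3.65% of all 32851 windows. Of the FoxO list, 20 genes have a window and 5 of them hold the motif, against 4.05% of all genes with a window.

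The Klrg1 signal of the BimKO arrays was that of KLRG1lo cells. It lay at 5.95 and 5.85 on the BimKO arrays and between 6.02 and 6.74 on the WT KLRG1lo arrays, far under its mean of 11.04 in KLRG1hi cells. The BimKO arrays lay just under the lowest WT array, with a difference of -0.38 (SE 0.32, adjusted p = 0.719). Id2, which blocks the E protein regulators of lymphocyte genes, differed by -0.09 (SE 0.19).

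**Figure D1:**
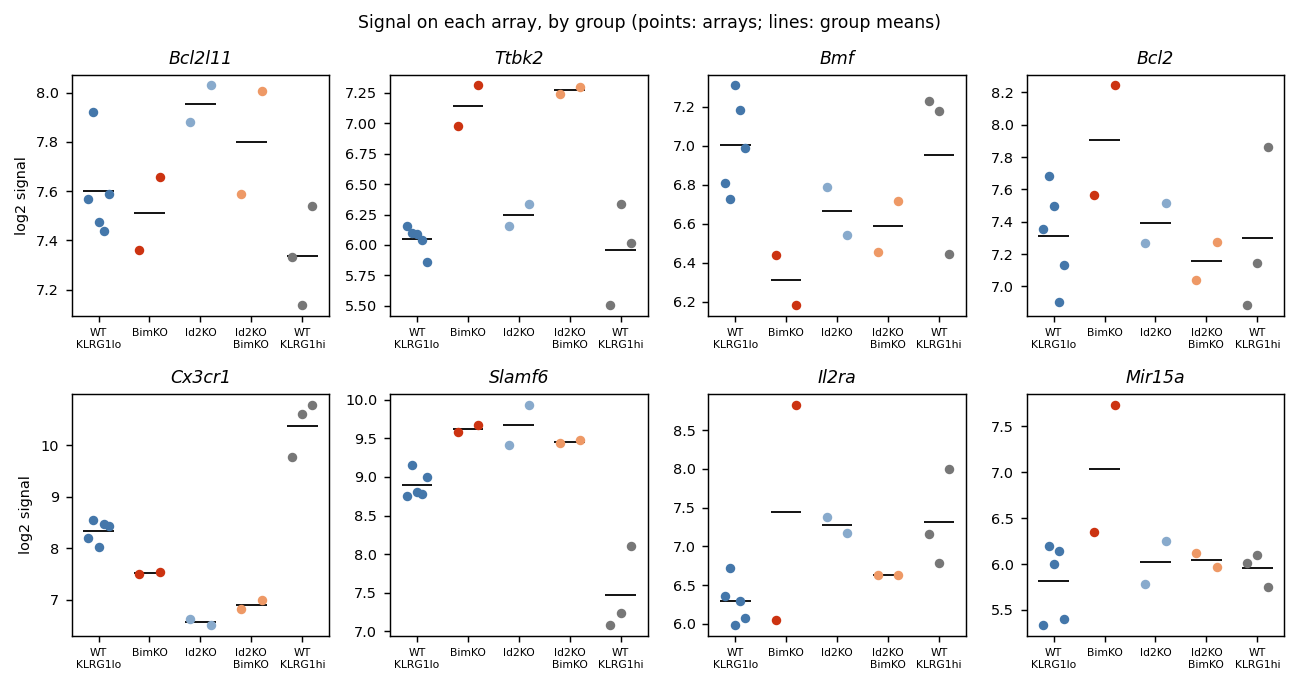
Each panel plots the log2 signal of 1 gene (vertical axis) on all 14 arrays by group (horizontal axis; points are arrays, lines are group means). Ttbk2 separates both groups that carry BimKO from the other groups, Bcl2l11 does not, and the high Il2ra and Mir15a means in BimKO rest largely on array 2, at 8.82 and 7.73.

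Ttbk2 had the smallest p in the comparison. It lay at 6.98 and 7.31 on the BimKO arrays and at 6.16, 6.10, 6.09, 6.04 and 5.86 on WT arrays 1 to 5, so both BimKO arrays stood clear of every WT array. The difference was 1.10 (SE 0.19, unadjusted p = 2.59e-05, adjusted p = 0.374), and the exact permutation p was 0.0476, the smallest that 2 against 5 arrays can give. Ttbk2 was picked for its small p, and the arrays were separate for 12.6% of all genes, so the permutation p adds no support. In the Id2-deficient background, on 4 other arrays, Ttbk2 was 7.24 and 7.30 in Id2KOBimKO against 6.16 and 6.33 in Id2KO. There too the groups did not overlap, and the difference was 1.02 (SE 0.23, unadjusted p = 0.000342). WT KLRG1hi cells had 5.51, 6.34 and 6.02, so all 4 arrays with a BimKO label lay above all 10 others.

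The mean of both Bim contrasts was tested over all genes as an addition made after these values were seen. In that test Ttbk2 was 1.06 higher with Bim deficiency (SE 0.15, adjusted p = 0.00531 in limma) and was 1 of 5 genes that passed (0.0346% of all genes), with 200 genes (1.39%) at an unadjusted p under 0.05. The other 4 were the sex-linked transcripts Eif2s3y, Uty, Kdm5d and Xist, which differ between the Id2KO arrays and the rest. The Ttbk2 call was lost without Id2KO array 1 (adjusted p = 0.0848), without Id2KOBimKO array 2 (0.0641), without BimKO array 2 (0.0971) and with a replicate block (0.0716), while its size stayed between 0.98 and 1.14 with any 1 array left out.

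Ttbk2 and Bcl2l11 both lie on chromosome 2, with Ttbk2 76 tested genes before Bcl2l11 in the RefSeq gene order. That chromosome holds 1155 of the genes tested, or 8%. Ehd4, a gene for a membrane-remodelling ATPase of endosomes, lies 87 tested genes before Bcl2l11. It was 6.94 and 7.02 on the BimKO arrays and between 5.83 and 6.66 in WT, a difference of 0.73 (SE 0.22, unadjusted p = 0.00393). In Id2KOBimKO it was 7.40 and 7.36 against 6.56 and 6.85 in Id2KO, a difference of 0.67 (SE 0.26, unadjusted p = 0.02). Whether sequence linked to Bcl2l11 takes part in the Ttbk2 and Ehd4 differences was not tested. In neither contrast did the groups overlap, which holds for 37.4% of all genes with 2 arrays against 2, and Ehd4 did not pass in the mean of both (adjusted p = 1).

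Of the 14438 genes tested, 10 had an unadjusted p under 0.05 in both Bim contrasts. In the first contrast alone 6.91% of all genes did, and in the second 0.803%. Whether 10 exceeds the overlap of unrelated contrasts was not tested. Of the 10 genes, 6 had the same sign: Ttbk2, Ehd4 and Lpin1 were higher with Bim deficiency, and Dohh, Srek1ip1 and Wdr5b were lower. Lpin1, a phosphatidate phosphatase of lipid synthesis, was 8.03 and 8.98 on the BimKO arrays and 7.23 to 7.74 in WT, a difference of 1.00 (SE 0.25). In Id2KOBimKO it was 7.77 and 7.86 against 7.01 and 6.97 in Id2KO, a difference of 0.83 (SE 0.30). Lpin1 was also at 7.55, 8.10 and 8.51 in WT KLRG1hi cells, so its level does not mark the BimKO label across all arrays. The other 4 genes, Trgv1, Fgr, Idi1 and Olfr140, had opposite signs in the contrasts. Of the 998 genes at an unadjusted p under 0.05 in BimKO against WT, 286 (28.7%) had the same sign in the Id2-deficient background. Across all genes tested, which are not independent, the 2 differences correlated at -0.381 (Pearson) and -0.443 (Spearman). The 2 differences thus tended to run in opposite directions over all genes tested and not only in the 998. The same-sign share of all genes was not counted, so the 28.7% has no like share beside it. Of the 14438 genes tested, all 4 arrays with a BimKO label lay above the other 10 for 8 genes and below them for 21. Whether these counts exceed those of any other 4 arrays was not tested, so they set no gene apart. The 8 higher ones were Ttbk2, Pisd-ps2, Izumo1r, Bloc1s6, Tox, Kcna3, Gga3 and A530040E14Rik. Of these, Ttbk2 and Bloc1s6 lie on chromosome 2, and of the 21 lower ones 0 do. In both contrasts the arrays separated the same way for 141 genes, of which 11 lie on that chromosome. It holds 8% of the genes tested. The difference between the contrasts passed for 4 genes (0.0277%), the sex-linked transcripts named above, and 616 genes (4.27%) had an unadjusted p under 0.05 for it.

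**Figure D2:**
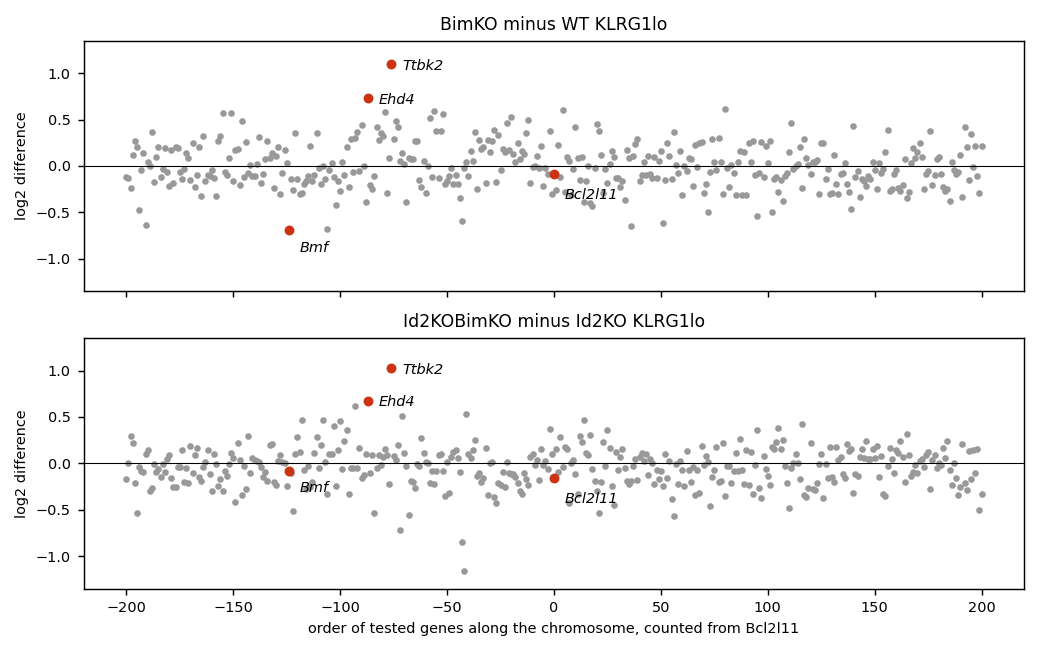
Log2 differences of the tested genes nearest to Bcl2l11 on its chromosome (vertical axis) are plotted by their order along it, up to 200 tested genes to each side (horizontal axis), for BimKO minus WT (top) and Id2KOBimKO minus Id2KO (bottom). Ttbk2 (1.10 and 1.02) and Ehd4 (0.73 and 0.67) stand above their neighbours in both panels, Bmf lies at -0.69 in the upper and -0.08 in the lower panel, and Bcl2l11 lies near 0 in both.

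Of the 10 tested genes directly beside Bcl2l11, 3 had both BimKO arrays within the range of the WT arrays, 5 had 1 outside it and 2, Acoxl and Tmem87b, had both outside it. For 12.6% of all genes both BimKO arrays lay above, or both below, every WT array. The shares of all genes with 0 or 1 BimKO array outside the WT range were not counted, so the counts of 3 and 5 set the neighbours apart in nothing. The 5 nearest tested genes on one side were Mal, Mall, Mtln, Bub1 and Acoxl, with differences from -0.31 (Acoxl) to 0.38 (Bub1). Acoxl, a gene for an acyl-CoA oxidase-like protein, lay at 5.56 and 5.29, below the WT range of 5.64 to 5.88 (unadjusted p = 0.0733). On the other side lay Morrbid, Anapc1, Mertk, Tmem87b and Fbln7. Morrbid, a long non-coding RNA known to hold down Bcl2l11 in short-lived myeloid cells, had 2 probe sets that disagreed in sign, at -0.26 and 0.20. Tmem87b, a Golgi membrane protein, was the one neighbour with an unadjusted p under 0.05: it lay at 6.88 and 7.13 on the BimKO arrays, above the WT range of 6.18 to 6.62, a difference of 0.60 (SE 0.19, unadjusted p = 0.00621, adjusted p = 0.657). In the Id2-deficient background it differed by -0.04 (SE 0.23).

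Among the 20 tested members of the Bcl-2 family other than Bcl2l11, 1 was higher and 1 lower at an unadjusted p under 0.05, against 2.51% and 4.41% of all genes. Their median difference was -0.04, against -0.02 over all genes. Bmf, a BH3-only protein related to Bim, lay at 6.44 and 6.18 on the BimKO arrays. WT arrays 1 to 5 had 6.81, 6.73, 7.31, 7.19 and 6.99, so both BimKO arrays were under all of them. The difference was -0.69 (SE 0.22, unadjusted p = 0.00536, adjusted p = 0.657). In the Id2-deficient background Bmf differed by -0.08 (SE 0.26), with overlapping arrays, and the test of the difference between the contrasts did not pass. Bmf also lies on chromosome 2, 124 tested genes before Bcl2l11.

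Bcl2, the founding survival protein and a direct partner of Bim, lay at 7.57 and 8.24 on the BimKO arrays and at 7.35, 7.69, 7.50, 6.90 and 7.13 on WT arrays 1 to 5. Array 2 was above every WT array, but array 1 was below WT array 2, so the groups overlapped. The difference was 0.59 (SE 0.26, unadjusted p = 0.0343, adjusted p = 0.657), and it was -0.24 (SE 0.31) in the Id2-deficient background. The other survival genes lay close to WT: Mcl1 at 0.04 (SE 0.16), Bcl2l1, which encodes Bcl-xL, at -0.09 (SE 0.19), and Bcl2l2 at -0.08 (SE 0.16).

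Among the other BH3-only genes, Bbc3 (Puma) had a difference of -0.29, Bik -0.32 and Hrk -0.37, while Bad lay at -0.11, Pmaip1 (Noxa) at 0.02 and Bid at 0.19. None of these had an unadjusted p under 0.05, and each overlapped the WT arrays. Of the pore-forming effectors, Bak1 lay at -0.01 and Bok at -0.35. Bax and the Bcl2a1 genes have no probe set of their own and were not analysed here, and Bcl2l10 and Bcl2l15 were too dim to be tested. Of the 29 tested genes of death receptors and caspases, 1 was higher at an unadjusted p under 0.05 (3.45%, against 2.51% of all genes). It was Birc2, an inhibitor of apoptosis protein, at 0.51, while its second probe set lay at 0.04. The median of the 29 genes was 0.07.

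**Figure D3:**
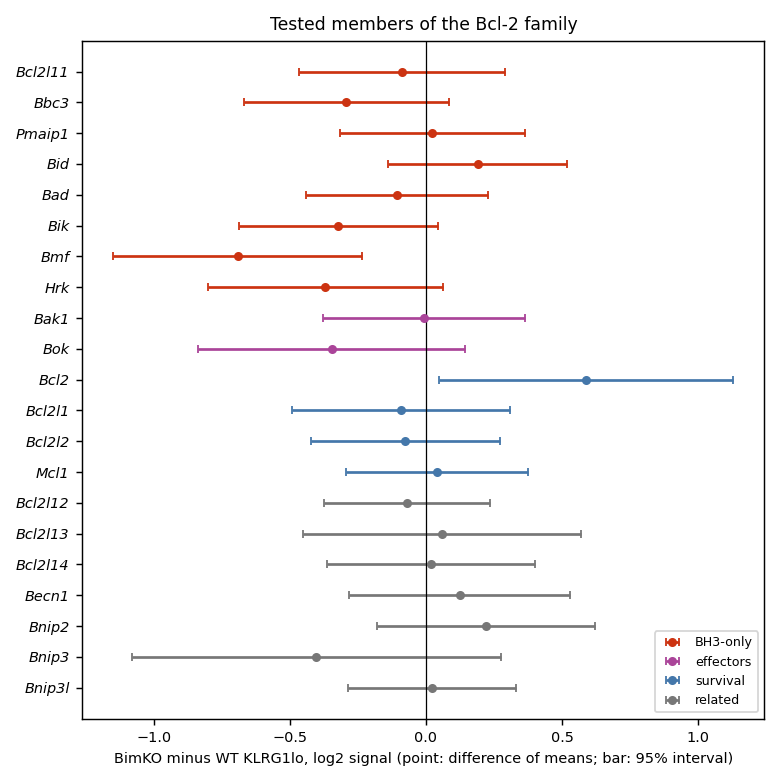
Points show BimKO minus WT KLRG1lo in log2 signal (horizontal axis) for the 21 tested members of the Bcl-2 family, coloured by role, and bars the 95% intervals from limma over 2 and 5 arrays. The intervals of Bmf (-0.69) and Bcl2 (0.59) leave 0, and the other intervals include it.

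Of the memory precursor genes, 22 of 23 tested had a higher mean in BimKO than in WT, as had 47.3% of all genes, and 0 passed. Other lists leaned higher too, such as inhibitory receptors (13 of 15), DNA replication (31 of 38) and respiratory chain genes (44 of 58). Some leaned lower, such as monocyte and macrophage markers (3 of 16 higher). In the memory precursor list 6 were higher and 0 lower at an unadjusted p under 0.05. That is 26.1% higher against 2.51% of all genes, and the list's median difference was 0.25. Slamf6, a receptor of progenitor-like T cells, lay at 9.58 and 9.67 on the BimKO arrays. The WT arrays ran from 8.75 to 9.16 with a median of 8.80, all below both. The difference was 0.73 (SE 0.23, unadjusted p = 0.00567, adjusted p = 0.657).

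Myb, a transcription factor of stem-like T cells, lay at 8.03 and 8.42 against 7.42 to 7.81 in WT, and Tnfsf8, the ligand of CD30, at 7.01 and 7.47 against 6.39 to 6.81. Neither gene overlapped between the groups. The differences were 0.62 (SE 0.18) for Myb and 0.71 (SE 0.25) for Tnfsf8. Ccr7, the receptor that guides T cells to lymph nodes, Il6st, a shared cytokine receptor subunit, and Bcl2 were the remaining 3. Their arrays overlapped those of WT, with differences of 0.57 for Ccr7 and 0.47 for Il6st. Il7r, the receptor for the survival cytokine IL-7, lay at 10.29 and 10.55 against 9.51 to 10.24, a difference of 0.52 (SE 0.25, unadjusted p = 0.0514).

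The size of the list's median depended on the arrays used. It was 0.18 on BimKO array 1 alone, with 1 member higher at an unadjusted p under 0.05 (0.568% of all genes), and 0.32 on array 2 alone, with 4 (3.48% of all genes), so the share of all genes moved in the same way. It was 0.37 with 8 members against WT arrays 3 to 5 (7.38% of all genes), and 0.15 with 6 after quantile normalization (2.34%). In the Id2-deficient background the same 23 genes had a median of -0.14, and 0 were higher or lower at an unadjusted p under 0.05. The list shares members, among them Ccr7, Bcl2 and Il7r, with other lists used here.

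Of the terminal effector genes, 21 of 28 tested had a lower mean in BimKO than in WT, as had 52.7% of all genes, and 0 passed. In this list 0 were higher and 2 lower at an unadjusted p under 0.05, against 2.51% and 4.41% of all genes, with a median of -0.16. Cx3cr1, the fractalkine receptor of terminal effector cells, lay at 7.50 and 7.54 on the BimKO arrays and at 8.21, 8.56, 8.02, 8.48 and 8.44 on WT arrays 1 to 5. Both BimKO arrays were under every WT array, and all were far under the KLRG1hi mean of 10.38. The difference was -0.82 (SE 0.22, unadjusted p = 0.00199, adjusted p = 0.657), and in the Id2-deficient background it was 0.33 (SE 0.27). S1pr5, a receptor for exit from tissues, lay at 6.84 and 6.61 against 7.02 to 7.48 in WT, a difference of -0.59 (SE 0.19). Zeb2, a driver of terminal differentiation, lay at 6.02 and 6.13 against 6.25 to 6.83, a difference of -0.47 (SE 0.22).

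Other members of the list lay closer to WT or differed between the BimKO arrays. Tbx21, the gene of the effector factor T-bet, lay at -0.15, Prdm1 at -0.12 and Gzmb at -0.19. Gzma was 9.38 and Fasl 6.38 on BimKO array 1, both below all WT arrays, and 10.78 and 7.81 on array 2, both above all WT arrays. The median of the terminal effector list was -0.32 on array 1 alone and 0.01 on array 2 alone, and 0.05 against WT arrays 3 to 5.

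**Figure D4:**
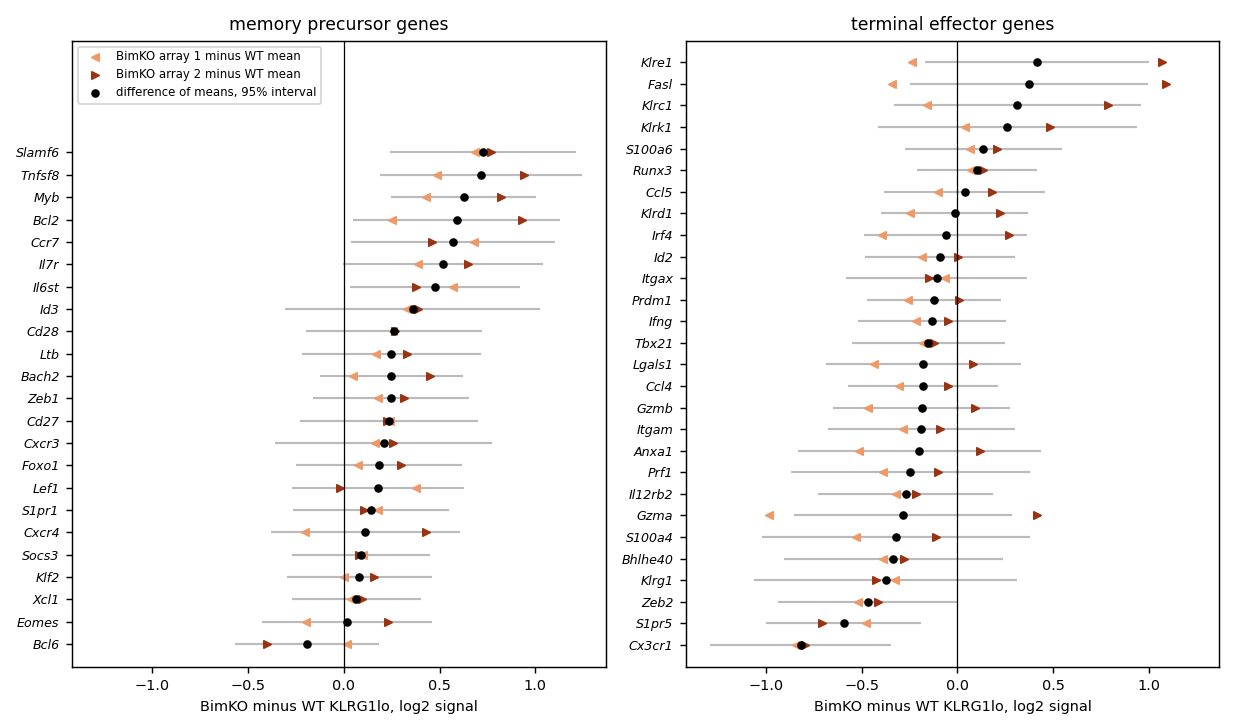
Black points show BimKO minus WT KLRG1lo in log2 signal (horizontal axis) for the tested memory precursor genes (left) and terminal effector genes (right), with 95% intervals from limma, and triangles show each BimKO array minus the WT mean. In the left panel 22 of 23 points lie above 0, and in the right panel the arrays part for Fasl, Klre1, Klrc1 and Gzma.

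Homing and transcription factor genes held further single members with a low unadjusted p. Gpr183, which guides activated lymphocytes along oxysterol gradients, lay at 8.61 and 8.93 against 7.86 to 8.40 in WT, a difference of 0.73 (SE 0.23, unadjusted p = 0.00541). Cxcr5, a receptor for entry into follicles, lay at 6.35 and 6.67 against 5.64 to 6.25, a difference of 0.60 (SE 0.21). Of the 25 homing receptors, 3 were higher (12%) and 2 lower (8%) at an unadjusted p under 0.05, and their median was -0.02. Of all genes, 2.51% were higher and 4.41% lower at that p. Among 42 T cell transcription factors, 3 were higher (7.14%) and 1 lower (2.38%). Myc, a driver of growth, lay at 0.73 with overlapping arrays, Foxp1, a factor of quiescence, at 0.37 with separate ones, and Nfil3 at -0.49 with separate ones.

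Of all genes, 2.51% were higher and 4.41% lower at an unadjusted p under 0.05, beside which the list counts below stand. The FoxO list, to which Bcl2l11 belongs, had 2 of 23 members higher at that p (8.7%), Trib2 at 0.52 and Ccr7. It had 0 lower and a median of 0.18. The p53 list had 1 of 20, Gtse1 at 0.36, and a median of 0.14. Inhibitory receptors had 2 of 15, Ctla4, at 6.95 and 7.12 against 5.88 to 6.66, and Lilrb4a. Cytokine receptors had 3 of 27 (11.1%) and cytokines and chemokines 2 of 22 (9.09%), all of them with higher means. Some of these rest mainly on BimKO array 2. Against the WT mean, Il2ra lay at -0.23 on array 1 and 2.53 on array 2, Cxcl10 at 0.03 and 1.02, and Lilrb4a at 0.24 and 1.07. Il6st, Il4ra and Tnfsf8 were more even, at 0.57 and 0.38, 0.34 and 0.58, and 0.49 and 0.94. Costimulatory receptors had 1 of 18 (5.56%), NK receptors 1 of 16 (6.25%) and immediate early genes 1 of 27 (3.7%), also higher. A count of 1 sets no such list apart. T cell receptor signalling had 1 of 32, Spry2 at -0.46. Cytotoxic granule genes (19 tested), E and Id proteins (7), interferon-stimulated genes (28), glycolysis (23), DNA replication (38) and heat shock proteins (12) had 0 members past that threshold, and their medians lay between -0.09 and 0.14.

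Growth lists showed how much a single array weighs. Of all genes, 2.51% were higher and 4.41% lower at an unadjusted p under 0.05. Of 49 mitosis genes, 4 were higher at that p (8.16%): Smc4 and Smc2, both condensin subunits, Cenpk and Kif20b. Smc4 lay at 9.41 and 9.39 against 8.46 to 8.97 in WT, a difference of 0.68 (SE 0.21). With BimKO array 2 alone 14 of the 49 were higher at that p, where 3.48% of all genes were, and with array 1 alone 1 was, where 0.568% were. Of 58 respiratory chain genes 1 was higher, Ndufv2 (1.72%). Against WT arrays 3 to 5 there were 17, where 7.38% of all genes were higher. Ribosome biogenesis genes had 2 of 44 higher (4.55%), with Utp18 at 0.82 (SE 0.27), and 1 lower (2.27%). Sterol and fatty acid synthesis genes had 1 of 27 lower, Idi1, whose 2 probe sets pointed in opposite directions, at -0.52 and 0.42. The unfolded protein response had 1 of 25 higher, Dnajb9.

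**Figure D5:**
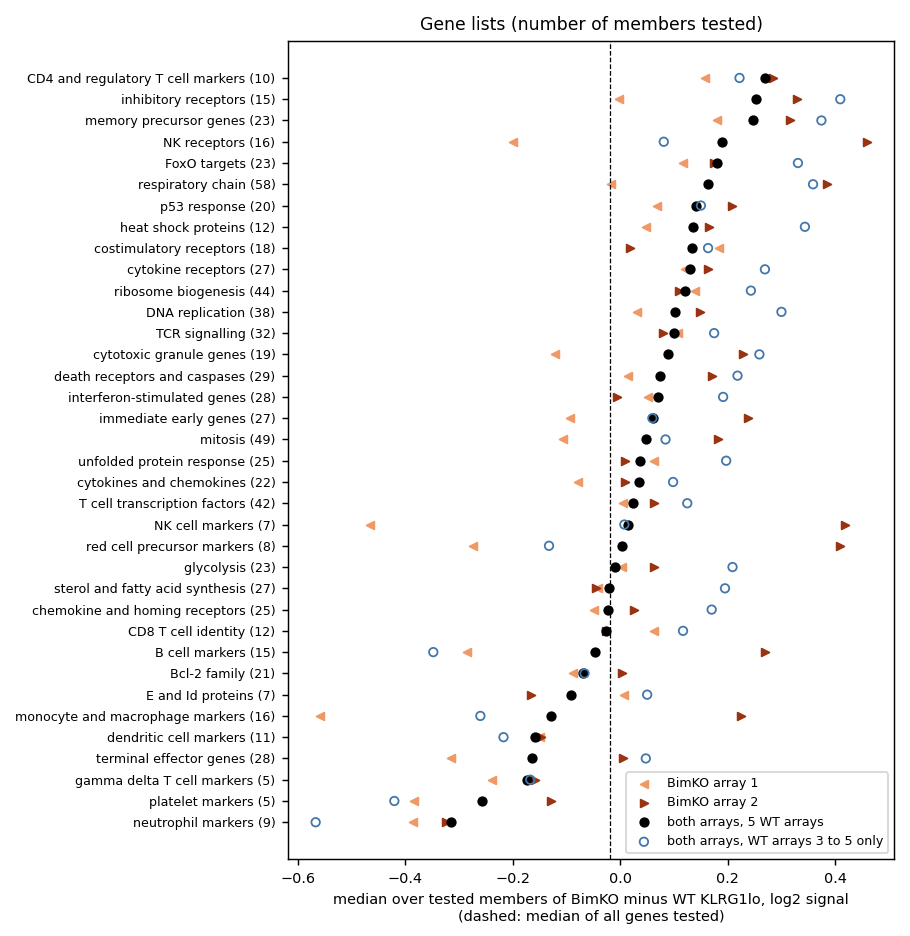
Black points show the median over tested members of BimKO minus WT KLRG1lo in log2 signal (horizontal axis) for each gene list (number tested in brackets); triangles give the same for each BimKO array alone and open circles for WT arrays 3 to 5 only. The dashed line is the median of all genes, -0.02; memory precursor genes (0.25), CD4 and regulatory T cell markers (0.27), FoxO targets (0.18) and other lists lie right of it in all 4 versions, while monocyte and NK cell markers part widely between the BimKO arrays.

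The other genes with the smallest p-values were mixed in kind, and none passed (adjusted p from 0.452 to 0.657 in limma). Aim2, a sensor of DNA in the cytosol, lay at 7.15 and 7.28 against 5.78 to 6.37 in WT, a difference of 1.08 (SE 0.20, unadjusted p = 6.26e-05). Slc15a2, a transporter of small peptides, lay at 6.35 and 6.70 against 5.18 to 5.69, a difference of 1.02 (SE 0.22). Zbtb20, a zinc finger repressor, differed by 1.09 on its brighter probe set and by 0.64 on the other. Nsg2 (0.84), Pisd-ps2 (0.65), Ift80 (0.91), a part of the transport system of cilia, and Lpin1 also had arrays that did not overlap.

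Trgv1, a V segment of the T cell receptor gamma chain, had a difference of 1.99 (SE 0.47), but its arrays overlapped, at 7.05 and 8.79 against 5.21 to 7.26. In the Id2-deficient background the difference was -1.45 (SE 0.57). V segments form a family of similar genes, and the specificity of the probe set was not tested. The 5 tested markers of gamma delta T cells had a median of -0.17, with 0 past an unadjusted p of 0.05.

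Mir15a was the one microRNA gene in this group. Its mature products are shown because miR-15a is known to target Bcl2, the family member described above; the capitals mark the seed, bases 2 to 8, and the sequences are those of RefSeq, GRCm38.p6.
mmu-miR-15a-5p: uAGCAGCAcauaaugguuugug
mmu-miR-15a-3p: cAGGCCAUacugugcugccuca

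The arrays measured a probe set named for the precursor gene, not these products. Its signal was 6.35 on BimKO array 1 and 7.73 on array 2, and 5.34, 6.20, 6.00, 6.15 and 5.40 on WT arrays 1 to 5. Array 2 stood far above the rest and array 1 just above the highest WT array. The difference was 1.22 (SE 0.30, unadjusted p = 0.000882, adjusted p = 0.657), and it was 0.03 in the Id2-deficient background. Bcl2 and Mir15a both had higher means on the BimKO arrays.

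The lower genes in this group were mostly dim. Apart from Cx3cr1, they were Atoh8 (-0.74), Foxa1 (-0.75), Zfyve19 (-0.68), Ptpn5 (-0.65), F2 (-0.65), Slc4a11 (-0.64), Macir (-0.64), Fgr (-0.58) and Ankrd6 (-0.51). All had separate arrays. Several code for proteins of other tissues, such as F2 (prothrombin) and Foxa1 (a factor of endoderm). On the BimKO arrays F2 lay at 4.82 and 4.64 and Slc4a11 at 4.57 and 4.78, below the 5.23 and 5.39 of unnamed probe sets there. Fgr, a Src family kinase, was brighter, at 6.67 and 6.37 against 6.99 to 7.18. Macir and Zfyve19 were close to it, with WT means of 6.96 and 6.87.

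Without BimKO array 1, 8 genes passed on array 2 alone. That fit sets 1 array against 5 and assumes that the lone array varies like the other groups, so it describes this array and not the genotype. Il2ra, the high-affinity IL-2 receptor chain, was 8.82 there, against 6.06 on BimKO array 1 and 5.99 to 6.72 in WT. Orai2, a subunit of calcium channels, was 5.98 on array 2 and 8.65 on array 1, with 8.24 to 9.01 in WT. Car1, a carbonic anhydrase of red cells, was 8.16 on array 2 and 4.91 on array 1, and the others were Snora44, Marcksl1, Ikzf2, Mir15a and Sprr1a. For each of the 8 genes array 2 lay outside the range of all other 13 arrays.

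Markers of other cells differed between the BimKO arrays too. The summed linear signal of 15 B cell markers was 796 on array 1 and 1890 on array 2, with 775 to 1790 in WT. For 16 monocyte and macrophage markers it was 1200 and 1870 against 1400 to 2110, and for 8 red cell precursor markers 465 and 1040 against 462 to 978. Cd74, an antigen-presentation gene of B cells and myeloid cells, was 5.21 on BimKO array 1 and 8.63 on array 2, and ran from 5.73 to 8.73 in WT. For 10 markers of CD4 and regulatory T cells the sums were 971 and 1500 against 792 to 948. In this list 3 members, Ctla4, Izumo1r and Il2ra, were higher at an unadjusted p under 0.05 (30%, against 2.51% of all genes). Il2ra was high on array 2 only, at 8.82, and lay at 6.06 on array 1, within the WT range. The sums of 9 neutrophil markers (356 and 486 against 350 to 859), 7 NK cell markers (3100 and 5230 against 3530 to 5140), 11 dendritic cell markers (1570 and 1610 against 1600 to 1850) and 5 platelet markers (344 and 392 against 368 to 499) lay at or near the WT range. Ebf1, Cr2, Adgre1, Ly6g, Clec9a and Pf4, which define B cells, macrophages, neutrophils, dendritic cells and platelets, were too dim to be tested. The part of other cells in the differences above was not tested.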

How the data were processed

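RNA was extracted with TRIzol, amplified and labelled with biotin, per the labels' protocols. The authors deposited RMA values, which are linear intensity values of 34760 probe sets; RMA is named without a version and the build mm9 without a role, per the submitters' processing notes. Log2 values were taken with no offset added. Without scanner files, which were not analysed here, the centring against scanner values is unknown. Of the probe sets 21640 had a single gene name, 1321 several and 11799 none; 21553 were found by Entrez number in RefSeq GRCm38.p6, used for names, gene order and the sequences printed. The brightest probe set stood for each of 19937 genes, and 14438 were tested, above the 40th percentile on at least 2 arrays. Group means of all 14 arrays were fitted together with limma 3.58.1 (R 4.3.3, data.table version 1.17.8). The degrees of freedom were 9 (residual) and 7.99 (prior). The threshold was 0.05 for two-sided p-values adjusted after Benjamini and Hochberg across the genes tested; p-values printed for genes come from this fit. The number of arrays limits the precision. The scripts were tested on simulated data.

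Genes were named by rule: Bcl2l11, Id2 and Klrg1; since no gene passed, the 10 of each direction with the smallest p (1 predicted name was passed over); all tested Bcl-2 family members; up to 4 of each of 37 lists; and the 5 nearest tested genes on each side of Bcl2l11. Ehd4, the genes shared by both Bim contrasts, those with all BimKO-labelled arrays outside the others, those of BimKO array 2, and further list members given as examples were chosen after their values were seen. The arrays compared, the lists and the tests were chosen with earlier results of these data known. Alternatives were the filter, scaling, variance model, replicate block, arrays in the fit, probe sets per gene, offset, array spread, the WT arrays used, a minimum fold of 1.5 and each array left out; the mean of both Bim contrasts was added after seeing the data.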

Additional observations from a re-analysis of the deposited data

Results flagged for a closer look

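Among 179 named genes, 3 had a WT KLRG1lo array far from the other 4, where chance alone marks about 1 group in 20. Bik was low on WT array 2 at 5.93, Tnfsf8 was high on WT array 5 at 6.81, and Fasl was high on WT array 2 at 7.17. The difference between the 2 Bim contrasts passed the interaction test in limma for Xist (4.37), Eif2s3y (-5.02), Uty (-3.84) and Kdm5d (-3.06). In the second contrast the sex of the cells and the Bim label cannot be told apart, so these values show no effect of Bim deficiency. All 4 are sex-linked and differ between Id2KO arrays and the other groups, and BimKO and WT KLRG1lo differed in none of them at an unadjusted p under 0.05.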

How the results depend on the processing

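In BimKO against WT, 0 genes passed under every alternative run with both BimKO arrays; with single arrays left out the count ran from 0 to 8, with 8 without BimKO array 1. The unadjusted count of 998 became 611 with a filter at the 60th percentile, 1685 with array spread as a covariate and 2364 with WT arrays 3 to 5 only, and ran from 177 to 2020 with single arrays left out; the cause was not tested, except that the stricter filter tests fewer genes. Quantile normalization gave 338 higher and 910 lower genes against 362 and 636. The Bcl2l11 difference of -0.09 turned to 0.0101 with WT arrays 3 to 5 only and ran from -0.2358 to 0.0601 with single arrays left out (0.0601 without BimKO array 1). With a replicate block 690 genes had an unadjusted p under 0.05 and 0 passed, split into 420 higher and 270 lower; Bcl2l11 lay at -0.14 and the mean Ttbk2 effect at 1.03 (adjusted p = 0.0716). Same-numbered BimKO and WT arrays deviated with correlations of -0.073 and 0.369, and the labels name nothing that same-numbered arrays share, so they were not treated as pairs; 2 numbers cannot settle whether they are. The mean Ttbk2 effect ran from 0.98 to 1.14 with single arrays left out. The second Bim contrast and the interaction kept counts of 4 under the alternatives run for them, and the mean effect had 4 to 7. Of 2990 recomputed differences of 178 named genes, 60 changed sign, in 34 genes; for the 20 genes with the smallest p it was 0 of 335.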
